A study of Arabidopsis thaliana with 12 samples.

Results

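The transcriptomes of 2 ethylene-insensitive mutants of Arabidopsis thaliana, etr1 and ein2, were set against each other to ask which genes moved alike in both and which moved in 1 of them only. The arrays were chosen by their labels alone, and 8 of the 12 arrays of the series entered the comparison. The groups were etr1 at 12 days, Col-0 wild type at 12 days, ein2 at 14 days and Col-0 wild type at 14 days, with 2 arrays each. The study's design text names the alleles etr1-1 and ein2-1, and all 4 groups came from cold-treated seeds and grew on agar with 1% sucrose. Each mutant was represented by 1 allele at 1 age, so a difference between the mutants cannot be told apart from a difference between the ages or between the plates of the 2 ages. The series as a whole addresses how abscisic acid (ABA) and ethylene signalling act on each other. The effect of a mutant was its mean log2(signal + 50) minus that of Col-0 of the same age, and the comparison of the mutants was the etr1 effect minus the ein2 effect. All 12 arrays shared 1 fit, so 2 arrays of the mutant aba2 and 2 of the wild type Col-7, all at 12 days on 1% sucrose, helped to set the variance. Col-7 also served as an alternative 12-day wild type.

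Ethylene is a gaseous hormone that is perceived by a small family of receptors, of which ETR1 was the first to be known. Without ethylene the receptors hold the pathway off, and ethylene binding releases the membrane protein EIN2, which passes the signal to the transcription factors EIN3 and its relatives in the nucleus. The etr1-1 allele makes a dominant receptor that no longer binds the hormone, while ein2-1 is a recessive loss of EIN2, so the mutants block the same pathway at its start and in its middle. In seedlings the pathway is known for restraining elongation, for shaping roots and the apical hook, and for defence genes. ETR1 and EIN2 were not among the genes paired with a probe set, so their own levels were not analysed here.

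Of 22746 probe sets that were not controls, 13648 were bright enough to be tested. The labels name no tissue. The markers that could be paired, RCA for leaves (Rubisco activase, 1 of 12 shoot markers listed) and PYK10 for roots (a root beta-glucosidase, 1 of 8 root markers listed), had signals of 20343 to 28220 and of 10081 to 17241 over the 8 arrays, so transcripts of both organs were present. In bulk RNA, fewer cells of a type and less RNA per cell cannot be told apart. The SD of the log2 difference between the 2 replicates was 0.248 in etr1, 0.606 in Col-0 at 12 days, 0.259 in ein2 and 0.227 in Col-0 at 14 days, so the wild type behind the etr1 effect was the least repeatable group. Replicate arrays of Col-0 at 12 days differed by more than 2-fold at 1176 probe sets. The labels do not say whether the replicates were separate cultures, and all p-values measure only the spread between these arrays. The median standard error was 0.20 for the effect of a mutant and 0.28 for the difference between the mutants, on the log2 scale. The fit took 1 variance per probe set for all groups. The etr1 effect therefore has the same standard error as the ein2 effect, although its wild type was less repeatable. The 95% interval of that difference reached a median of 0.63 to either side, and the interval lay inside -1 to 1, a 2-fold difference either way, for 69.5% of the probe sets tested.

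In etr1, 63 probe sets (0.462% of those tested) passed the test against Col-0, 28 higher and 35 lower. In ein2, 51 (0.374%) passed, 14 higher and 37 lower. The test throughout was limma with Benjamini-Hochberg adjustment at 0.05. Both mutants shared 24 of these calls in the same direction (0.176% of those tested), 5 rises and 19 falls, and no probe set was called in opposite directions. With Col-7 as the 12-day wild type 22 were shared, 1 rise and 21 falls. With array weights per group, which let the spread differ between groups, 31 were called in etr1 and 319 in ein2. In that fit JAL22 and QQS were called in opposite directions, with adjusted p-values in ein2 of 0.0272 for JAL22 and 0.00851 for QQS (limma). The shared calls were 38.1% of the etr1 calls and 47.1% of the ein2 calls. The share was unequal between rises and falls: 54.3% of the etr1 falls were also called in ein2, against 17.9% of the etr1 rises. Seen from ein2 the gap was smaller: 51.4% of its falls and 35.7% of its rises were also called in etr1. The differences between those shares were not tested.

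Most calls of 1 mutant leaned the same way in the other. Of the 35 etr1 falls, 31 had a negative effect in ein2, with a median effect of -1.57 in etr1 and -1.26 in ein2. Of the 28 etr1 rises, 22 had a positive effect in ein2, with a median effect of 1.45 in etr1 and 0.77 in ein2. All 37 ein2 falls and all 14 ein2 rises had the same sign in etr1. The falls had medians of -1.09 in etr1 and -1.67 in ein2, and the rises 0.96 in etr1 and 1.99 in ein2. Over all probe sets tested, 59.4% had the same sign in both. A call picks the probe sets that were extreme in the mutant that made it, so its own median is drawn away from 0 and the other mutant's is not. Across the 13648 probe sets the effects correlated with Pearson's r = 0.407 and Spearman's rho = 0.288, as a description over probe sets that share arrays and are not independent. The correlation rested in part on 1 array: without replicate 2 of Col-0 at 12 days r was 0.118, and without replicate 1 it was 0.477.

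**Figure D1:**
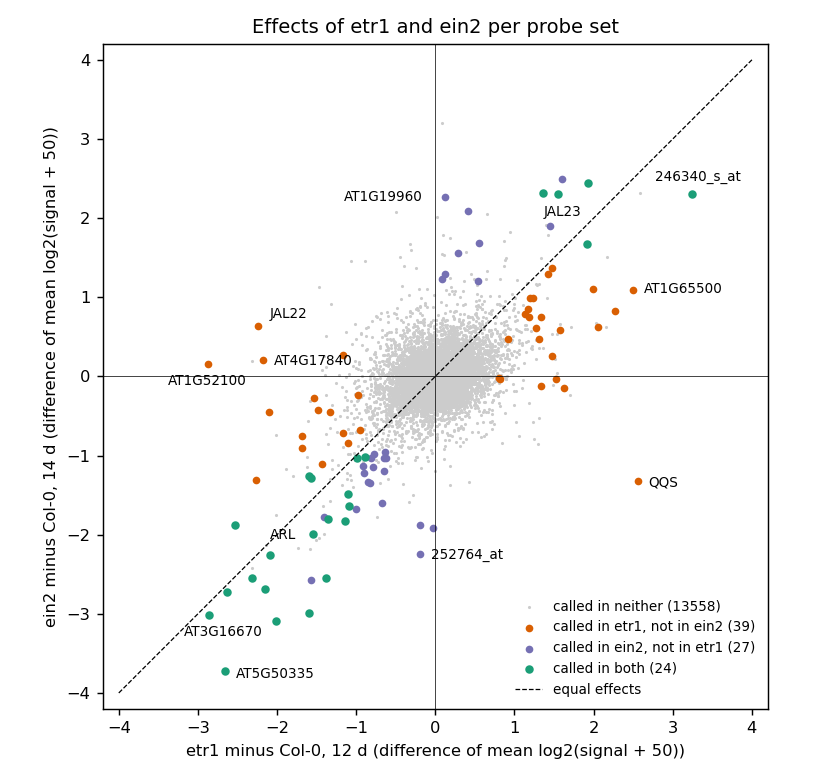
Each point is a probe set; the horizontal axis is the etr1 effect at 12 days and the vertical axis the ein2 effect at 14 days, both as differences of mean log2(signal + 50) from Col-0 of the same age. The 24 probe sets called in both mutants lie near the dashed line of equal effects, the 39 called in etr1 but not in ein2 and the 27 called in ein2 but not in etr1 lie on both sides of it, and JAL22, AT1G52100, QQS and 252764_at lie far from it.

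Transcripts lost in both mutants made up most of the shared calls. Of the 24 shared probe sets, 10 are paired with 1 gene, and 9 of these fell. The effects of the 19 shared falls ran from -2.85 to -0.88 in etr1 (median -1.59) and from -3.72 to -1.02 in ein2 (median -1.99). In all 24 the mutant arrays did not overlap with the Col-0 arrays at either age, as was also true of 12.4% of all probe sets tested. These 24 were picked by their calls, so the lack of overlap is no further evidence.

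AT3G16670 had signals of 194.1 and 300.9 in etr1, against 2448 and 1744 in Col-0 at 12 days. In ein2 its signals were 411.0 and 270.8, against 3087 and 3004 in Col-0 at 14 days. Both mutants were thus far below both wild types, with effects of -2.85 in etr1 (adjusted p = 0.000634) and -3.01 in ein2 (adjusted p = 0.000364) and a standard error of 0.24. The difference between the mutants was 0.15, with a 95% interval of -0.60 to 0.91, so a 2-fold difference lay outside the interval.

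AT5G62280 behaved in the same way at lower signals. It had 149.8 and 180.4 in etr1, against 813.7 and 915.4 in Col-0 at 12 days, and 279.3 and 228.6 in ein2, against 1449 and 1350 in Col-0 at 14 days. The effects were -2.09 in etr1 and -2.26 in ein2 (limma adjusted p of 0.000634 for etr1 and 0.000196 for ein2), and their difference of 0.17 had an interval of -0.33 to 0.67.

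AT5G57760 and AT5G50335 came down to signals below the offset of 50 in both mutants, where the size of a log2 effect is set largely by the offset. AT5G57760 had 3.04 and 15.5 in etr1, against 321.6 and 307.6 in Col-0 at 12 days, and 28.2 and 23.0 in ein2, against 465.6 and 437.8 in Col-0 at 14 days. Its effects were -2.63 in etr1 and -2.73 in ein2, and the interval of their difference was -0.61 to 0.82. AT5G50335 had 10.4 and 31.0 in etr1, against 385.0 and 395.7 in Col-0 at 12 days, and 0.930 and 11.7 in ein2, against 620.7 and 761.4 in Col-0 at 14 days. Its effects were -2.65 in etr1 and -3.72 in ein2. The difference of 1.06 (interval 0.36 to 1.76) did not pass the adjustment, and it combined near-zero signals in both mutants with a higher signal in the older wild type.

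AT2G39980 fell more in etr1 than in ein2 by its values. It had 46.7 and 39.3 in etr1, against 521.2 and 453.8 in Col-0 at 12 days, an effect of -2.53. It had 139.0 and 119.7 in ein2, against 637.0 and 586.1 in Col-0 at 14 days, an effect of -1.88. The interval of the difference, -1.26 to -0.03, left out 0, but its adjusted p over all probe sets was 1.00 (limma, Benjamini-Hochberg).

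ARL, the ARGOS-like gene whose product promotes organ growth by cell expansion, had signals of 405.9 and 353.8 in etr1, against 1032 and 1405 in Col-0 at 12 days. It had 443.0 and 480.6 in ein2, against 1749 and 2230 in Col-0 at 14 days. All 4 mutant arrays lay between 353.8 and 480.6, so the mutants met at one level while the wild type was higher at 14 days by 0.69 on the log2 scale. The effects were -1.55 in etr1 (adjusted p = 0.0103) and -1.99 in ein2 (adjusted p = 0.00173), and the difference of 0.44 had an interval of -0.18 to 1.06.

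IAGLU, a glucosyltransferase gene whose enzyme attaches glucose to auxin, had 168.5 and 147.9 in etr1, against 632.8 and 525.9 in Col-0 at 12 days. It had 244.9 and 190.2 in ein2, against 539.3 and 638.2 in Col-0 at 14 days. Its wild-type level was nearly the same at both ages, 0.02 apart on the log2 scale. The effects were -1.59 in etr1 (adjusted p = 0.00399) and -1.26 in ein2 (adjusted p = 0.0108), and their difference of -0.33 had an interval of -0.87 to 0.20, inside the 2-fold bounds. When 1 array of the 8 was left out in turn, IAGLU kept both calls in 3 of 8 fits, and ARL did so in 6 of 8.

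AT3G12710 and AT3G54040 had the smallest average effects of the named shared falls, -1.37 and -1.29. AT3G12710 had 191.6 and 201.8 in etr1, against 428.1 and 530.6 in Col-0 at 12 days, and 300.0 and 197.8 in ein2, against 948.0 and 796.1 in Col-0 at 14 days. AT3G54040 had 570.0 and 676.2 in etr1, against 1494 and 1295 in Col-0 at 12 days, and 402.1 and 315.6 in ein2, against 942.4 and 1254 in Col-0 at 14 days. The effects on AT3G12710 were -1.09 in etr1 and -1.64 in ein2, and those on AT3G54040 -1.10 in etr1 and -1.48 in ein2. For both genes the mutant arrays stayed below all wild-type arrays of the same age, and both calls held in 2 of the 8 fits that left out 1 array. Against Col-7 the etr1 effect on AT3G54040 was -0.76 and did not pass the test (adjusted p = 0.133, limma).

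JAL23, a jacalin-related lectin of a family known for sugar binding and defence, was the named gene that rose in both mutants. It had 873.9 and 877.2 in etr1, against 301.2 and 233.9 in Col-0 at 12 days, and 1066 and 772.8 in ein2, against 127.9 and 161.0 in Col-0 at 14 days. Both mutants reached the same level, 0.05 apart on the log2 scale, while Col-0 was lower at 14 days. The effects were 1.55 in etr1 (adjusted p = 0.00853) and 2.31 in ein2 (adjusted p = 0.000409). Against the other 12-day wild type, Col-7, the etr1 effect on JAL23 was 0.94 with an adjusted p of 0.058 (limma), so that rise depended on which wild type it was set against.

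**Figure D2:**
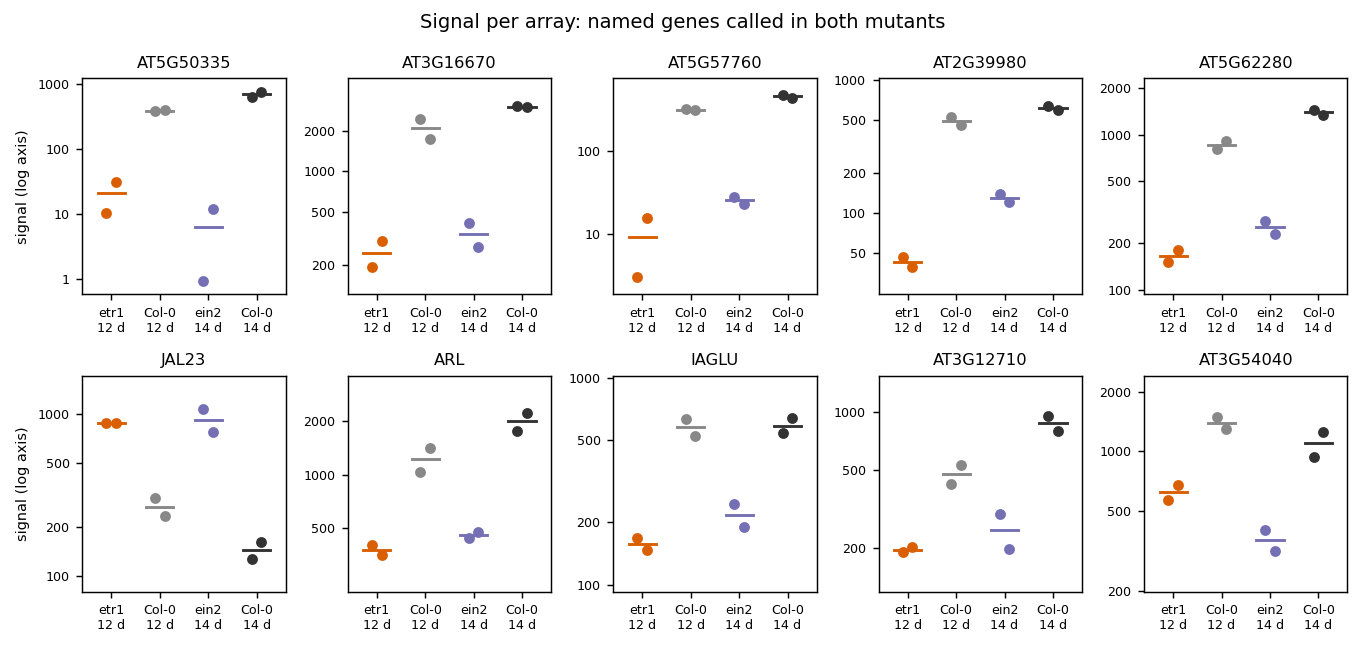
Signals (log axis, 1 panel per gene) of the 10 named genes called in both mutants, with 1 point per array, a bar at each mean, and the groups etr1 and Col-0 at 12 days and ein2 and Col-0 at 14 days from left to right. In 9 genes both mutants lie below both wild types, and in JAL23 both lie above; ARL and JAL23 have nearly equal mutant levels and unequal wild-type levels.

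The 14 unnamed probe sets called in both mutants comprised 10 falls and 4 rises. The unnamed probe set with the largest rise, singled out after its values were seen, was 246340_s_at. Its signals were 1108 and 1147 in etr1, against 130.4 and 36.4 in Col-0 at 12 days, and 877.9 and 568.1 in ein2, against 61.0 and 161.4 in Col-0 at 14 days. Every mutant array lay above every Col-0 array, and the effects were 3.24 in etr1 and 2.31 in ein2. Against Col-7 its etr1 effect was 1.54 and did not pass the test (adjusted p = 0.129, limma), and both calls held in 2 of the 8 fits that left out 1 array. The 5 shared rises ran from 1.36 to 3.24 in etr1 and from 1.67 to 2.44 in ein2. Against Col-7 they ran from 0.62 to 2.13 in etr1, where 1 of the 5, 253066_at, passed the test. The brightest shared rise, 252618_at, had 9112 and 10906 in etr1, against 5217 and 2837 in Col-0 at 12 days, and 6655 and 7819 in ein2, against 1432 and 1378 in Col-0 at 14 days.

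Across the 19 shared falls the ein2 effect was larger in size in 16. In 17 of the 19, Col-0 itself had a higher level at 14 days than at 12 days, by a median of 0.50 over the 19, while the ein2 level exceeded the etr1 level by a median of 0.11. The greater size of the ein2 falls thus went with a higher wild-type level at 14 days. None of the 24 differed between the mutants by the test of the difference, 8 had an unadjusted p under 0.05 there, and the differences ran from -0.96 to 1.39. When Col-7 stood in for Col-0 at 12 days, all 24 kept the sign of their etr1 effect and 16 passed the test in etr1.

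The average of both effects, which draws on all 8 arrays, gave more calls than the overlap of the single calls. It passed the test at 166 probe sets (1.22% of those tested), 66 higher and 100 lower, and 87 of these were called in neither mutant alone. The effects had the same sign in 164 of the 166. The exceptions were JAL22 and AT1G52100, where a large fall in etr1 carried the average. Selection by the average favours effects of the same sign, so the count of 164 is no further evidence. Of the 166, 30 were called by themselves in etr1 only and 25 in ein2 only. In 84 of the 166 (32 higher, 52 lower, 42 of them named), the 95% interval of the difference also lay inside the 2-fold bounds, as it did for 69.5% of all probe sets tested. By that bound the effects of these 84 were alike within 2-fold, a smaller share than over all probe sets. In the remaining 82 the interval reached beyond 2-fold, and 35 of the 166 had an unadjusted p under 0.05 for the difference.

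DFR, which encodes dihydroflavonol reductase of anthocyanin synthesis, rose in the average by 1.67 (adjusted p = 0.00499). It had 1306 and 1089 in etr1, against 549.4 and 297.7 in Col-0 at 12 days, and 528.5 and 566.5 in ein2, against 63.1 and 176.9 in Col-0 at 14 days. The levels were higher at 12 days in the mutant and in the wild type alike, and the effects of 1.44 in etr1 and 1.90 in ein2 differed by -0.45 (interval -1.46 to 0.55). By itself, the etr1 effect on DFR did not pass the test (adjusted p = 0.109, limma), and the ein2 effect did (adjusted p = 0.0370). Against Col-7 the etr1 effect was 0.87, and the average kept its call in 18 of 18 alternative fits.

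AT5G62130 had the largest average rise among the named genes that were not called in both mutants. It had 1125 and 1146 in etr1, against 519.8 and 218.7 in Col-0 at 12 days, and 2083 and 2646 in ein2, against 457.2 and 309.8 in Col-0 at 14 days. The average was 2.04 (adjusted p = 0.00264), from effects of 1.60 in etr1 and 2.49 in ein2. AT1G31550 and AT3G51450 rose with effects alike within 2-fold. AT1G31550 averaged 1.11, with effects of 1.24 in etr1 and 0.99 in ein2, and AT3G51450 averaged 1.09, with 1.19 in etr1 and 0.99 in ein2.

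AT1G65500, AT2G43530 and AT2G43620 rose in the average, with larger effects in etr1 when set against Col-0. AT1G65500 had 1272 and 2327 in etr1, against 298.0 and 231.9 in Col-0 at 12 days, and 593.2 and 399.1 in ein2, against 164.9 and 244.2 in Col-0 at 14 days. Its effects were 2.50 in etr1 and 1.10 in ein2. AT2G43530 had effects of 1.99 in etr1 and 1.11 in ein2, and AT2G43620 had 2.27 in etr1 and 0.83 in ein2. Against Col-7 the etr1 effect on AT2G43530 was 1.06, slightly under that of ein2. For none of the 3 did the difference pass the adjustment over all probe sets. AT4G12500, at 1.28 in etr1 and 1.15 in ein2, was called in the average in 9 of 17 alternative fits, and AT2G43620 in 11 of 18.

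SIS, the salt-induced serine-rich gene named for its response to salt, fell in the average by 1.14 (adjusted p = 0.0156). It had 225.8 and 123.4 in etr1, against 276.9 and 320.5 in Col-0 at 12 days, and 359.3 and 484.2 in ein2, against 1267 and 1483 in Col-0 at 14 days. The wild type was higher at 14 days by 2.03 on the log2 scale and ein2 was higher than etr1 by 1.10, and both mutants were below Col-0 of their age. The effect was -0.67 in etr1, where it did not pass alone, and -1.60 in ein2. The arrays of Col-7 at 12 days had 807.0 and 1217, and against them the etr1 effect was -2.25 and passed the test (adjusted p = 0.00457, limma), so that the difference between the mutants turned to -0.65, against 0.93 with Col-0. The average lost its call without etr1 replicate 2, ein2 replicate 1 or either array of Col-0 at 14 days.

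AT5G22580 fell in the average with effects alike within 2-fold. It had 644.2 and 770.2 in etr1, against 2428 and 1636 in Col-0 at 12 days, and 711.8 and 880.8 in ein2, against 1691 and 1842 in Col-0 at 14 days. The effects were -1.44 in etr1 and -1.11 in ein2. The other falls picked by the rule for the average, which takes the 8 largest, were AT5G01210 (-1.31), AT5G55450 (-1.19), AT4G32460 (-1.09), AT2G36690 (-1.09) and AT2G47880 (-1.04), together with AT1G62510 (-1.28), whose fall lay mainly in etr1. Of these, AT5G01210 and AT2G47880 kept the call in 12 of 18 alternative fits each and AT5G55450 in 8 of 17.

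**Figure D3:**
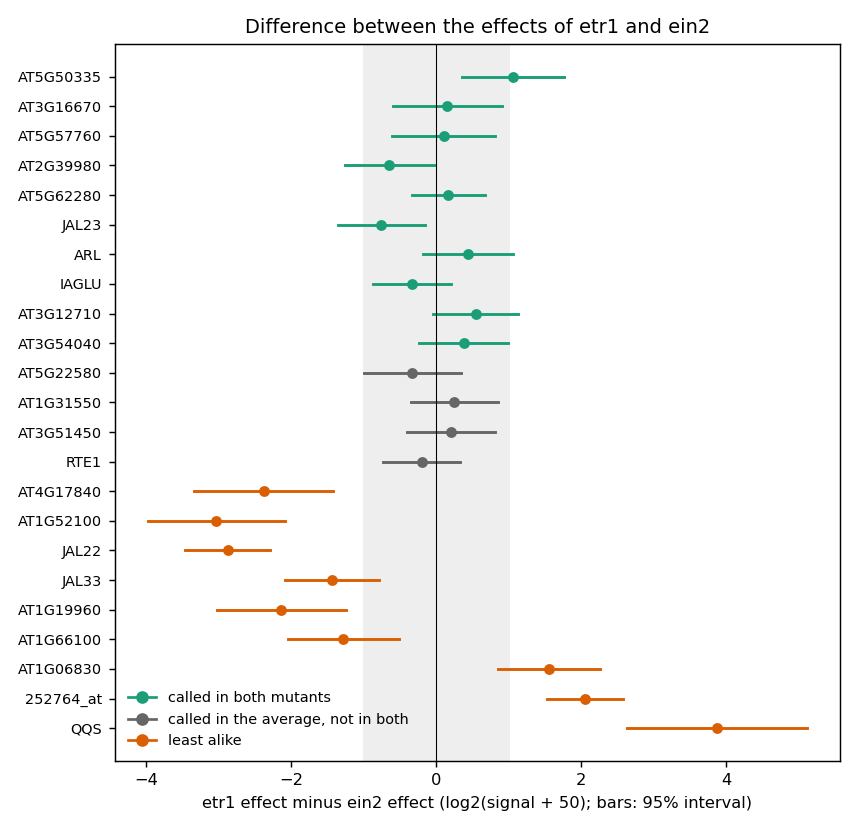
The etr1 effect minus the ein2 effect on the log2(signal + 50) scale for the named genes, as points with 95% intervals; the grey band marks a difference of up to 2-fold. AT3G16670, AT5G57760, AT5G62280, IAGLU and RTE1 are among those with intervals inside the band. JAL22, AT1G52100, AT4G17840, AT1G19960, 252764_at and QQS have intervals wholly outside it.

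The mutants differed by the test of the difference itself at 2 probe sets (0.0147% of those tested), while 483 had an unadjusted p under 0.05. JAL22, another jacalin-related lectin, had signals of 622.8 and 493.5 in etr1, against 3208 and 2440 in Col-0 at 12 days. In ein2 it had 6512 and 5930, against 4150 and 3788 in Col-0 at 14 days. JAL22 was thus far below the wild type in etr1 and above it, without overlap, in ein2. The effects were -2.24 in etr1 (adjusted p = 0.000634) and 0.64 in ein2 (adjusted p = 0.395), and their difference was -2.88 ± 0.26 (standard error; adjusted p = 0.00728, limma). The etr1 signals were also below those of Col-7 at 12 days, 2592 and 2140. The call of the difference held in 12 of 18 alternative fits, with values of -3.07 to -2.63. It was lost when only the 8 arrays were fitted (adjusted p = 0.0609) and when replicate 2 of etr1 or any 1 of the 4 arrays at 14 days was left out (adjusted p up to 0.104, limma).

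The second was 252764_at, a probe set that is unnamed here. It had 1445 and 1302 in etr1, against 1399 and 1770 in Col-0 at 12 days, and 275.1 and 272.3 in ein2, against 1615 and 1357 in Col-0 at 14 days. Both ein2 arrays stood apart from the other 6, which lay between 1302 and 1770. The effects were -0.19 in etr1 and -2.24 in ein2, and the difference was 2.05 ± 0.24 (adjusted p = 0.0303, limma). Its call held in 9 of 18 alternative fits, with values of 1.76 to 2.21. The call was lost when only the 8 arrays were fitted (adjusted p = 0.134, limma), with the replicate number as a block (adjusted p = 0.0605, limma) and with an offset of 150. It was also lost without any 1 array of etr1, ein2 or Col-0 at 14 days. AT2G34930 and AT2G16005, also picked for small p-values of the difference, leaned in opposite directions in the mutants, but neither difference passed the adjustment. With 1 array left out, AT2G34930 had effects of 0.96 to 1.53 in etr1 and -1.11 to -0.48 in ein2. AT2G16005 had -1.21 to -0.58 in etr1 and 1.11 to 1.80 in ein2. Their etr1 effects against Col-7 were 0.91 for AT2G34930 and -0.57 for AT2G16005.

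Genes moved in 1 mutant only need more than a call in 1 and none in the other. Of the 39 probe sets called in etr1 and not in ein2, 22 had an effect of the same sign in ein2 with an unadjusted p under 0.05. That left 15 with an unadjusted p of 0.05 or more in ein2, 7 higher and 8 lower in etr1, of which 10 are named. All 15 had an unadjusted p under 0.05 for the difference, but none of the 15 passed its adjustment over all probe sets (limma). The remaining pair, JAL22 and QQS, leaned the opposite way in ein2. The 10 named genes of the 15 are described next by their values, as candidates whose difference between the mutants was not established.

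AT1G52100 had the lowest signals of these genes in etr1, 6.75 and 8.44, which lie under the offset, against 490.7 and 281.2 in Col-0 at 12 days. In ein2 it had 519.5 and 552.9, against 440.3 and 511.7 in Col-0 at 14 days. Every array but those of etr1 lay between 281.2 and 552.9, and the arrays of Col-7 had 682.7 and 318.3. The effects were -2.88 in etr1 (adjusted p = 0.00376) and 0.16 in ein2, and the difference of -3.04 (interval -3.98 to -2.09) had an adjusted p of 0.117. With Col-7 as the 12-day wild type that adjusted p was 0.0412 (limma).

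AT4G17840 was also low in etr1, at 263.7 and 204.4, against 1775 and 842.4 in Col-0 at 12 days. Its ein2 signals of 1508 and 1886 overlapped with those of Col-0 at 14 days, 1516 and 1394. The effects were -2.18 in etr1 (adjusted p = 0.0156) and 0.21 in ein2, and the difference of -2.38 had an adjusted p of 0.439. AT1G62510, a brighter gene, had 1259 and 1479 in etr1, against 5487 and 6618 in Col-0 at 12 days, and 4952 and 6473 in ein2, against 7692 and 7812 in Col-0 at 14 days. Its effects were -2.10 in etr1 and -0.45 in ein2, so the ein2 arrays were lower than their wild type too, by less.

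JAL33, a jacalin-related lectin, had 2140 and 1470 in etr1, against 4478 and 3636 in Col-0 at 12 days, and 12141 and 10527 in ein2, against 9386 and 9332 in Col-0 at 14 days. It fell in etr1 by 1.16 (adjusted p = 0.0480), and its effect in ein2 was 0.27. Against Col-7 its etr1 effect was -0.94 and did not pass the test (adjusted p = 0.0791, limma). AT2G28780, named outside the rule after its values were seen, had -0.97 in etr1 and -0.24 in ein2.

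Among the rises, AT1G06830 had 884.5 and 1119 in etr1, against 250.0 and 392.1 in Col-0 at 12 days. In ein2 it had 289.6 and 311.2, against 306.3 and 311.9 in Col-0 at 14 days, so the etr1 arrays alone stood apart. The effects were 1.52 in etr1 (adjusted p = 0.0200) and -0.04 in ein2, and the etr1 effect against Col-7 was 1.61. AT3G07140 rose by 0.81 in etr1 (0.65 against Col-7, adjusted p = 0.0657, limma), with an effect of -0.02 in ein2, and AT5G49280 rose by 0.81 in etr1, with -0.03 in ein2. AT2G43620 belonged to the same class by its unadjusted p in ein2, although its ein2 effect was 0.83.

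AT2G24600 shows how far such a class depends on the wild type. It had 557.9 and 613.3 in etr1, against 171.4 and 238.1 in Col-0 at 12 days, an effect of 1.33 (adjusted p = 0.0265). In ein2 it had 1631 and 2210, against 2353 and 1818 in Col-0 at 14 days. The arrays of Col-7 at 12 days had 574.9 and 515.1, level with etr1, and against them the etr1 effect was 0.10.

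QQS, an orphan gene named for its influence on starch, had 1297 and 1418 in etr1, against 107.3 and 312.8 in Col-0 at 12 days, and 102.2 and 77.5 in ein2, against 254.3 and 350.2 in Col-0 at 14 days. By these values it was higher in etr1 by 2.56 (adjusted p = 0.0261) and had an effect of -1.32 in ein2 (adjusted p = 0.418), and the difference of 3.88 had an adjusted p of 0.117 (limma). The 2 arrays of Col-7 at 12 days, however, had 1468 and 652.8, and against them the etr1 effect was 0.45 (adjusted p = 0.670). With Col-7 as the 12-day wild type the difference between the effects was 1.77. The mutants themselves were 3.34 apart on the log2 scale, and Col-0 was 0.55 apart between the ages.

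Of the 27 probe sets called in ein2 and not in etr1, 19 had an effect of the same sign in etr1 with an unadjusted p under 0.05. The remaining 8, 5 higher and 3 lower in ein2 and 4 of them named, all had an unadjusted p under 0.05 for the difference. Among these 8, 252764_at passed the adjustment.

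AT1G19960 had 572.0 and 765.1 in etr1, against 757.9 and 476.2 in Col-0 at 12 days, an effect of 0.13. In ein2 it had 843.7 and 894.3, against 120.0 and 164.6 in Col-0 at 14 days, an effect of 2.27 (adjusted p = 0.00757). The mutants themselves were 0.37 apart on the log2 scale, while Col-0 was higher at 12 days by 1.77, so the unequal effects came with unequal wild types. The adjusted p of the difference was 0.439 (limma), and with Col-7 as the 12-day wild type it was 0.0493.

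AT1G66100 had 3873 and 4793 in etr1, against 3534 and 3544 in Col-0 at 12 days, and 6371 and 7579 in ein2, against 2098 and 2571 in Col-0 at 14 days. Its effects were 0.28 in etr1 and 1.56 in ein2. AT1G52000 had 559.9 and 576.6 in etr1, against 574.3 and 292.9 in Col-0 at 12 days, and 1286 and 2071 in ein2, against 323.8 and 371.6 in Col-0 at 14 days. In ein2 it rose by 2.08, and its effect in etr1 was 0.42. AT1G54050 had effects of 0.08 in etr1 and 1.23 in ein2.

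**Figure D4:**
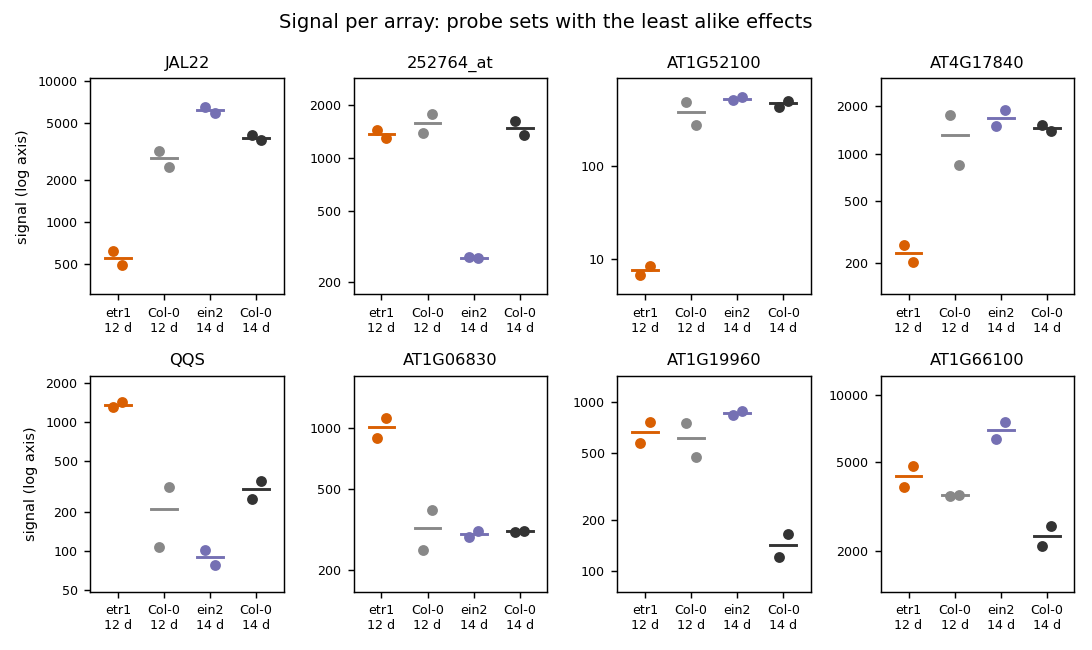
Signals (log axis, 1 panel per probe set) of 8 probe sets picked from those with an unadjusted p under 0.05 for the difference. Others with a smaller p than some of these are not shown. Each panel has 1 point per array and a bar at each mean. The groups are etr1 and Col-0 at 12 days and ein2 and Col-0 at 14 days from left to right. JAL22, AT1G52100, AT4G17840, QQS and AT1G06830 stand apart in etr1 and 252764_at in ein2, while in AT1G19960 the 14-day wild type is the low group.

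A difference between the effects can come from unequal mutants or from unequal wild types, and the sizes of both gaps were compared. Of the 483 probe sets with an unadjusted p under 0.05 for the difference, the gap between etr1 and ein2 was the larger in 226 and the gap between the wild types of 12 and 14 days in 257. Among the 15 candidates of etr1 the mutants' gap was the larger in 9, and among the 8 of ein2 in 6. For JAL22 the mutants were 3.37 apart on the log2 scale and the wild types 0.50. For 252764_at these gaps were 2.14 and 0.09.

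Ethylene genes were measured in small part. Of 17 listed genes of ethylene perception and signalling, 4 were paired and tested, and none was called in etr1 or in ein2. Over all probe sets tested, 0.462% were called in etr1 and 0.374% in ein2, so no call among 4 says little about the list. RTE1, which encodes a membrane protein that promotes the signalling of the receptor ETR1, had 255.0 and 267.6 in etr1, against 422.4 and 522.7 in Col-0 at 12 days, and 249.3 and 339.2 in ein2, against 456.7 and 436.2 in Col-0 at 14 days. It fell in the average by 0.64 (adjusted p = 0.0325), and the difference of -0.20 had an interval of -0.73 to 0.33, inside the 2-fold bounds. That call held in 9 of 18 alternative fits, and was lost with Col-7 (adjusted p = 0.0648, limma) and without either etr1 array, either array of Col-0 at 14 days, ein2 replicate 1 or replicate 2 of Col-0 at 12 days. Its relative RTH had effects of 0.14 in etr1 and -0.23 in ein2, and ETP2, an F-box protein that targets EIN2 for breakdown, had -0.20 in etr1 and 0.04 in ein2. EIN3, the transcription factor at the end of the pathway, had -0.16 in etr1 and -0.08 in ein2. None of the 13 listed genes of ethylene synthesis was paired with a probe set.

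Of 16 listed ethylene-responsive genes, 3 were tested and 1, ARL, fell in both mutants, beside 0.176% of all probe sets tested that were called in both. The lists were chosen with earlier results of these data known, so 1 call among 3 is no finding about the list. The defensin gene PDF1.2, a target of combined ethylene and jasmonate signalling, had 230.6 and 621.3 in etr1, against 449.7 and 1460 in Col-0 at 12 days, and 46.0 and 18.8 in ein2, against 15.2 and 74.6 in Col-0 at 14 days. Its replicates overlapped between mutant and wild type at both ages, and the interval of the difference between the effects spanned -3.09 to 1.39. PDF1.2b had effects of -0.41 in etr1 and -0.48 in ein2.

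Of 23 listed auxin genes, 4 were tested and IAGLU alone was called, in both mutants. Over all probe sets tested, 0.462% were called in etr1, 0.374% in ein2 and 0.176% in both. With so few members tested, the counts for this and the next lists say little about the lists themselves. GH3.3, which encodes an enzyme joining auxin to amino acids, had effects of 1.57 in etr1 and 0.66 in ein2, and its relative WES1 had -0.28 in etr1 and -0.43 in ein2. OPCL1, a ligase of jasmonate synthesis and the 1 tested member of 14 listed jasmonate genes, had 835.2 and 789.4 in etr1, against 341.1 and 261.8 in Col-0 at 12 days, and 1539 and 1344 in ein2, against 1212 and 865.8 in Col-0 at 14 days. It rose in etr1 by 1.30 (adjusted p = 0.0261), and its effect in ein2 was 0.47. Against Col-7 the etr1 effect on OPCL1 was 0.51 and did not pass the test (adjusted p = 0.313, limma). The 3 gibberellin receptor genes had no call, with GID1A at 0.45 in etr1 and 0.35 in ein2 and GID1C at -0.56 in etr1 and -0.33 in ein2. No listed gene of salicylate defence was paired. EXPA18, the 1 tested root-hair gene, had -0.05 in etr1 and -0.40 in ein2.

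Of 24 listed ABA and cold genes, 4 were tested and none was called, beside 0.462% of all probe sets called in etr1 and 0.374% in ein2. Their median effect was -0.67 in etr1 and 0.23 in ein2, beside 0.0137 in etr1 and -0.00464 in ein2 over all probe sets tested. COR15A, whose product protects chloroplast membranes in the cold, had 453.8 and 514.2 in etr1, between the 1129 and 322.3 of Col-0 at 12 days. It had 270.9 and 340.2 in ein2, against 56.2 and 79.7 in Col-0 at 14 days. The effects were -0.31 in etr1 and 1.59 in ein2. COR15B had -0.86 in etr1 and 0.62 in ein2, COR47 had -0.88 in etr1 and -0.35 in ein2, and LTI30 had -0.49 in etr1 and -0.16 in ein2. The ein2 median changed sign, to -0.16, when dim probe sets were filtered at the 60th percentile, which left out COR15B.

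The family of jacalin-related lectins was taken by gene name (JAL), so a lectin gene without that name is not counted. Of its 4 tested members, 3 were called in etr1 and 1 in ein2, beside 0.462% and 0.374% of all probe sets. The family was chosen with earlier results of these data known, so these counts are no independent evidence. With Col-7 as the 12-day wild type 1 of the 4, JAL22, was called in etr1. All 4 had a lower effect in etr1 than in ein2, with an unadjusted p under 0.05 for each difference, and 1 of the 4, JAL22, passed the adjustment. Over all 13648 probe sets tested, 483 had such an unadjusted p. JAL22 and JAL33 fell in etr1, JAL23 rose in both mutants, and JAL34 had 2828 and 2361 in etr1, against 3871 and 5024 in Col-0 at 12 days, and 7227 and 6990 in ein2, against 5751 and 5947 in Col-0 at 14 days. The effects on JAL34 were -0.76 in etr1 and 0.28 in ein2, neither of them called. The median effect of the 4 was -0.96 in etr1 and 0.46 in ein2. JAL22 and JAL23, which moved in opposite directions in etr1, lie on chromosome 2 with 1 gene between them in the RefSeq annotation of TAIR10.1.

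Plastid-encoded transcripts, which serve photosynthesis and the plastid's own gene expression, had no call in either mutant among 68 tested, beside 0.462% of all probe sets called in etr1 and 0.374% in ein2. In etr1, 57 of the 68 had a negative effect, with a median of -0.29, and in ein2, 54 had a positive one, with a median of 0.24. The effect was lower in etr1 than in ein2 in 62 of 68, with a median difference of -0.51, and 17 of these differences had an unadjusted p under 0.05. Over all 13648 probe sets tested the median difference was 0.02, 6403 differences were negative and 483 had an unadjusted p under 0.05. Positive effects made up 52.3% of all probe sets in etr1 and 48.9% in ein2. The ribosomal protein gene rps2 had 3595 and 4907 in etr1, against 5683 and 6187 in Col-0 at 12 days, and 4452 and 3914 in ein2, against 2350 and 2427 in Col-0 at 14 days. The protease gene clpP had effects of -0.49 in etr1 and 0.87 in ein2, and ndhD, a subunit of the plastid NDH complex, had -0.61 in etr1 and 0.55 in ein2. The median level of the 68 was 0.54 lower in Col-0 at 14 days than at 12 days, while etr1 and ein2 were 0.05 apart, so the gap lay between the wild types. Genes of 1 organelle share its transcript pool and are not independent, and no mitochondria-encoded gene was paired.

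The other families with tested members had no call in either mutant against Col-0, beside 0.462% of all probe sets called in etr1 and 0.374% in ein2. Against Col-7, WRKY53 was called in etr1 at -1.63 (adjusted p = 0.00973, limma), as was CYP71B24 at -1.08 (adjusted p = 0.0397, limma). With Col-7 their averages were called too, at -1.18 for WRKY53 and -0.94 for CYP71B24. Among 25 UDP-glycosyltransferase genes the median effect was 0.11 in etr1 and 0.15 in ein2, and among 13 trichome birefringence-like genes it was 0.17 in etr1 and 0.20 in ein2. The 9 beta-glucosidase genes had medians of 0.31 in etr1 and 0.25 in ein2. The 5 xyloglucan endotransglucosylase genes, which remodel the cell wall, had medians of -0.06 in etr1 and -0.64 in ein2. XTH18 had 216.9 and 311.0 in etr1, against 182.5 and 270.2 in Col-0 at 12 days, and 527.4 and 1116 in ein2, against 2736 and 1556 in Col-0 at 14 days, with effects of 0.19 in etr1 and -1.37 in ein2. For cytochrome P450 genes (13 tested) the medians were -0.09 in etr1 and -0.03 in ein2, for WRKY factors (5) -0.01 in etr1 and -0.36 in ein2, and for calmodulin-like genes (5) -0.04 in etr1 and 0.05 in ein2. SWEET sugar transporters (7) had -0.10 in etr1 and -0.19 in ein2, and autophagy genes (8) -0.18 in etr1 and -0.05 in ein2. Expansins (8) had -0.27 in etr1 and 0.07 in ein2, and RALF-like peptides (7) 0.32 in etr1 and 0.03 in ein2.

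**Figure D5:**
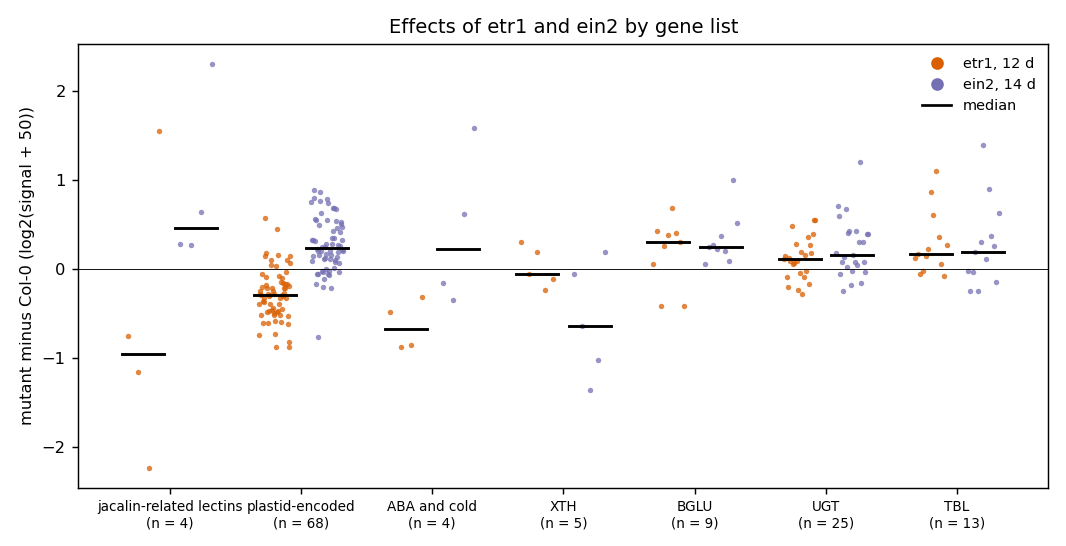
Effects of etr1 at 12 days (left of each pair) and of ein2 at 14 days (right) on the log2(signal + 50) scale, 1 point per tested probe set, for 7 lists and families with the number tested in brackets and a bar at each median. The jacalin-related lectins with a JAL name have medians of opposite sign, -0.96 in etr1 against 0.46 in ein2. So do the plastid-encoded genes, with -0.29 in etr1 against 0.24 in ein2. The UDP-glycosyltransferase genes have medians close to 0 in both.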

How the data were processed

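Total RNA was hybridised to single-colour ATH1 arrays, 12 in all and 8 of them compared here. Per the labels' design text the authors made the deposited signal intensity values with Affymetrix Microarray Suite 5.0 (MAS5 in the submitters' processing notes). The intensities were linear and already scaled to a common mean after trimming 2% at either end, and no detection calls were used. Controls (64 of 22810 probe sets) were left out, an offset of 50 was added, log2 was taken, and probe sets under the 40th percentile of mean signal (122.3) were not tested. Gene names came from the array's annotation in GEO (13513 with 1 gene, 503 with several, 8730 unnamed), and 13436 names were found in the RefSeq table of TAIR10.1. No sequences were used.

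One fit of 6 group means to all 12 arrays (limma 3.58.1 in R 4.3.3, eBayes with trend, 6 residual and 4.35 prior degrees of freedom) gave 2-sided tests of the effect of each mutant, their average and their difference, with Benjamini-Hochberg adjustment over 13648 probe sets and a threshold of 0.05. An exact permutation of 2 against 2 arrays cannot go below p = 0.333. Intervals are 95% and unadjusted. "Alike within 2-fold" means an average past the threshold and an interval of the difference inside -1 to 1. An average can pass through 1 mutant alone.

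The aba2 and Col-7 arrays shared the fit, and Col-7 was an alternative 12-day wild type. Named genes were those called in both mutants, the 8 largest other rises and falls of the average without overlap, those called in the difference or with its 6 smallest p-values in either direction, the 6 clearest of each mutant alone, and up to 4 per list. Of 163 genes in 12 lists, 25 were paired; 13 of 16 families had a tested member. The members and lists were chosen with earlier results of these data known. The procedure was tested on simulated data in which each probe set had the same spread in every group. That test therefore says nothing about the unequal spread of the real groups. Alternatives were other offsets, filters and scaling, quantile normalization, no trend, 8 arrays only, a replicate block, array weights, Col-7, and leaving out each array.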

Additional observations from a re-analysis of the deposited data

Results flagged for a closer look

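JAL22 was singled out because its effect differed between the mutants by the test of the difference, by -2.88 (etr1 minus ein2). It fell in etr1 and was higher than Col-0 in both ein2 arrays. 252764_at was singled out in the same way, with a difference of 2.05. It overlapped with Col-0 in etr1 and lay below Col-0 in both ein2 arrays. With group-wise array weights QQS and AT1G52100 passed the same test, both with an adjusted p of 0.00763 (limma).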

How the results depend on the processing

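Few arrays and unequal replicate spread limited every count, and dim probe sets had effects set largely by the offset. Leaving out 1 array at a time, the count called ran from 6 to 417 in etr1, from 12 to 90 in ein2, from 5 to 53 in both, from 0 to 12 for the difference, from 62 to 642 for the average and from 14 to 204 for effects alike within 2-fold, and the correlation of the effects from 0.118 to 0.477. The counts of 417, 53, 642 and 204 came without replicate 1 of Col-0 at 12 days, the count of 12 differences without its replicate 2, and that of 90 in ein2 without either. Each count fell by more than 1.5 times without any 1 array of etr1, ein2 or Col-0 at 14 days, except that of ein2 without an etr1 array. A lone array was assumed to vary like the other groups. All 24 shared probe sets kept their signs without either of those arrays. With array weights 31 were called in etr1, 319 in ein2 and 4 differences. With Col-7 the counts were 112 in etr1, 22 in both (1 rise, 21 falls), 6 differences and 54 alike, and the correlation was 0.218. The difference had 1 call with an offset of 150, 0 with 8 arrays only, and 1 with the replicate block. The filter at the 60th percentile left 54 alike.

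Replicate numbers did not pair the 4 groups compared, whose deviations from the group means correlated between -0.157 and 0.113. Outside them, same-numbered deviations of Col-0 at 12 days correlated at 0.542 with those of Col-7 and at 0.486 with those of aba2, and those of Col-7 and aba2 at 0.341. The design text speaks of independent sets, and the labels do not say which arrays shared one. With the replicate block 72 were called in etr1, 55 in ein2, 26 in both and 198 in the average.

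For named genes, 2094 repeats kept direction and side of the threshold, 72 lost the call, 31 gained it and 9 changed sign. With Col-7, ETP2 was 0.0651 in etr1, and the averages of EIN3 and CML23 were 0.0803 and -0.115. With quantile normalization RCA averaged 0.0521. Leaving out 1 array, the RTH difference ran from -0.135 to 0.874, the averages of EIN3 and PDF1.2b from -0.264 to 0.0203 and from -0.985 to 0.0900, and the ein2 effect on WRKY22 from -0.883 to 0.00849. The cause of these changes was not tested.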

Other observations

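TBL38, a member of the trichome birefringence-like family of cell-wall acetylation, had 1013 and 1018 in etr1, against 307.2 and 635.8 in Col-0 at 12 days, and 1124 and 1303 in ein2, against 669.0 and 582.6 in Col-0 at 14 days. Its effects were 1.11 in etr1 and 0.90 in ein2, neither of them called. CYP71B22, a cytochrome P450 gene, had 136.3 and 122.5 in etr1, against 225.6 and 767.5 in Col-0 at 12 days, and 68.8 and 86.4 in ein2, against 437.3 and 476.4 in Col-0 at 14 days. Its effects were -1.41 in etr1 and -1.99 in ein2, and its average of -1.70 did not pass the test. CML38, a calmodulin-like calcium sensor, had 1095 and 938.4 in etr1, against 273.2 and 363.6 in Col-0 at 12 days, and overlapped with its wild type in ein2, at 2528 and 2279 against 3064 and 1761. Its effects were 1.54 in etr1 and 0.05 in ein2, and the difference of 1.50 had an interval of 0.34 to 2.65 but did not pass the adjustment over all probe sets. Against Col-7 the etr1 effect on CML38 was 0.54 and the difference 0.50.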
